A study of Mus musculus with 26 samples.

Results

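The RNAs described here are the short transcript clusters of mouse liver. A cluster is the set of isoforms that share one gene number in the deposited tables. A cluster was taken when its longest isoform was under 500 nt and its estimated counts summed to 200 or more over the 24 libraries not made with IgG. Of 31469 clusters, 7241 were under 500 nt and 153 of these reached the count minimum. The rule leaves out 6 of them by identifier and 2 more for a wild-type mean of 1500 CPM (counts scaled to the total of the library) or above, which left 145 members. The members were thus chosen by measured counts, and that a member was detected somewhere is no finding.

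The series asks which liver RNAs are bound by hnRNPK, and whether binding differs in obesity. Wild-type mice were C57BL/6J on a normal diet, high-fat mice were of the same strain on a high-fat diet, and ob/ob mice, without functional leptin, were B6.V-Lepob/J on a normal diet. For each of these 3 mouse groups there are total liver RNA and RNA immunoprecipitated (IP) with an anti-hnRNPK antibody from a cytoplasmic and from a nuclear extract, with 2 replicates in each of the 9 groups. Total RNA was sequenced as 2 libraries per replicate number, which were summed here, so that each fraction has 6 units. A control IgG precipitate has 1 library per compartment, from mice of mixed strain and diet. Its labels call it hnRNPK-bound RNA, while its titles give IgG. Per the labels' protocols both extracts passed over IgG beads before the anti-hnRNPK beads, and libraries were made with a TruSeq RNA kit. Both precipitates are set against total liver RNA, from which they differ by fractionation and by precipitation. Age, sex and whether replicates came from different animals are not in the labels; p-values thus rest on the spread between the samples at hand, part of which may be technical. In bulk liver, fewer cells of a type and less RNA per cell cannot be told apart.

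hnRNPK is an RNA- and DNA-binding protein with KH domains that prefers stretches rich in cytidine. It resides mostly in the nucleus, shuttles to the cytoplasm, and takes part in splicing, RNA stability and translation. RNAs of this length class generally include messengers of very small proteins, short non-coding RNAs, and partial or pseudogene transcript models. A short RNA gives few fragments in a size-selected library, and RSEM corrects TPM, but not the estimated counts, for that. The deposited tables pair no cluster with a gene symbol, and the reference tables used here do not link these identifiers to symbols or sequences. Members are therefore named by identifier, liver markers were not checked, and no sequence is shown.

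The members ran from 155 nt (uc008wzh.1) to 499 nt (uc007ivy.2), with a median of 420 nt, and 58 were under 400 nt. The next longer cluster, uc007zyx.1, has 500 nt. In 124 of the 145 members (85.5%) the cluster was a single isoform, against 61.4% of all clusters, and no member had more than 6 isoforms. The least counted member, uc029voj.1, summed to 211 counts, and the most counted short cluster under the minimum, uc007gjn.1, to 195. At the other limit, uc009fmu.1 had 421.68 CPM in wild-type total RNA, while uc009fmw.2 (1525 CPM) and uc009cgh.1 (4552 CPM) fell outside. In total RNA alone 108 members reached 200 counts. The other 37 entered through the IP libraries, so a higher level in at least 1 IP was built into their choice, and where they reached the minimum mainly through 1 precipitate, so was the difference between the precipitates. Counts are therefore also given for the 108. Among the 145, 5 members in 2 sets had the same counts in all 26 libraries within 0.01 counts: uc007srw.1, uc007ssd.1 and uc007ssk.1 (451 nt each), and uc008anr.1 and uc008aod.1 (432 nt each). They share reads and cannot be separated, so the members hold 142 distinct count profiles.

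Total RNA libraries held 25597300 to 41731900 counts, those of cytoplasmic IP 8834060 to 12068900 and those of nuclear IP 5336060 to 10581100. The nuclear IgG library had 3116790 counts and the cytoplasmic IgG library 338469, so that 1 count in the latter is worth 2.28 CPM and a count of 0 there allows up to 6.83 CPM. Average fragment length enters as transcript length minus effective length: 51.1 to 70.0 nt in total RNA, 60.1 to 67.8 nt in cytoplasmic IP, 48.4 to 58.8 nt in nuclear IP, 86.5 nt in cytoplasmic IgG and 56.6 nt in nuclear IgG. For the members this left an effective length of 83.1% to 88.3% of the full length in the 24 libraries. The part of this offset in the count comparisons below was not tested.

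The members took a larger share of the reads in cytoplasmic IP than in total RNA. Their share was 0.477% to 0.631% of all counts over the 12 total RNA libraries, with 0.477% to 0.518% in high-fat, 0.532% to 0.603% in wild-type and 0.57% to 0.631% in ob/ob liver. High-fat lay below the others, and wild type and ob/ob overlapped. In cytoplasmic IP it was 0.913% and 1.49% in the wild-type replicates, 1.07% and 1.37% in high-fat, and 1.23% and 1.26% in ob/ob. No cytoplasmic IP library overlapped the total RNA libraries, and the wild-type pair spanned the whole cytoplasmic range. In nuclear IP the share was 0.754% and 0.856% in wild type, 0.501% and 0.700% in high-fat, and 0.79% and 0.867% in ob/ob. One high-fat nuclear library thus lay inside the total RNA range. The IgG libraries had 0.934% (cytoplasm) and 0.851% (nucleus), inside the range of the IP libraries of the same compartment. The 108 members with 200 counts in total RNA carried nearly all of this: 0.494% to 0.627% per total RNA unit, 0.887% to 1.45% in cytoplasmic IP and 0.477% to 0.819% per nuclear unit. The other 37 went from at most 0.000321% of a total RNA unit to 0.0237% to 0.0355% of a cytoplasmic unit and 0.024% to 0.0502% of a nuclear unit, a direction that their choice fixes.

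**Figure D1:**
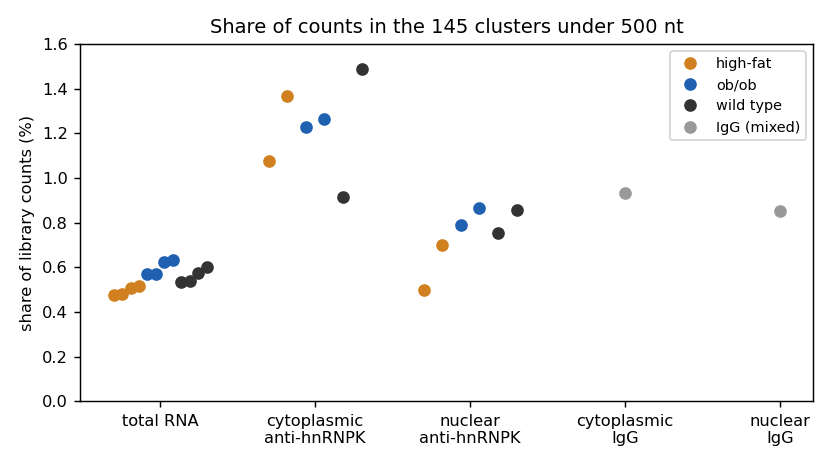
Share of each library's counts (percent, y axis) that fell in the 145 members, by fraction (x axis); each point is 1 library, coloured by mouse group. The 6 cytoplasmic IP libraries lie at 0.913% to 1.49%, above all 12 total RNA libraries (0.477% to 0.631%), and the 2 IgG libraries lie at 0.934% and 0.851%.

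In total RNA the members ranged from 0 to 1882 TPM on average, where the highest of all clusters had 48070 TPM. The rule itself left out clusters of 1500 CPM or more. Per length, the median of the 145 members was 10.9 TPM (mean over 12 libraries), against 0.08 TPM over all 31469 clusters, of which the members are a set chosen for being counted. A mean of 100 TPM or more was reached by 46 members, and 32 were under 1 TPM. The member with the highest level was uc009fmu.1 (464 nt), at 1882 TPM on average and 1677 to 2161 TPM over the libraries, rank 57 of all clusters. The second was uc009mam.1 (494 nt), at 1391 TPM on average and 1067 to 1740 TPM, rank 78. Their TPM ranges overlap between libraries, but uc009fmu.1 was the higher of the pair in 12 of 12 libraries, by 1.12 to 1.68 times.

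Under the TMM scaling used here, both were higher in cytoplasmic IP and lower in nuclear IP than in total RNA. For uc009fmu.1 the CPM in total RNA was 353 and 372 in wild type, 330 and 340.0 in high-fat, and 415 and 345 in ob/ob. In cytoplasmic IP it was 295 and 481, 476 and 577, and 571 and 781 in the same order. In nuclear IP it was 52.3 and 36.3, 84.3 and 71.6, and 98.8 and 82.0. All nuclear units lay below all total RNA units, and 1 wild-type cytoplasmic unit lay below them too. The fitted log2 fold was 0.46 ± 0.14 (SE) for cytoplasmic IP over total RNA (adjusted p = 0.00854, edgeR quasi-likelihood test) and -2.47 ± 0.15 for nuclear IP over total RNA (adjusted p = 1.3e-09). The cytoplasmic fold is smaller than what the scaling can move. By library size alone the cytoplasmic median over all clusters went from -0.11 to -0.62, and the fold of this member is not given there. The IgG libraries had 287 CPM in the cytoplasm and 71.0 CPM in the nucleus, the latter inside the range of the nuclear IP.

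For uc009mam.1 total RNA held 285 and 354 CPM in wild type, 220.1 and 220.0 in high-fat, and 364 and 282 in ob/ob. Cytoplasmic IP held 685 and 1396, 1072 and 1154, and 938 and 1027 CPM. Nuclear IP held 36.0 and 20.8, 31.7 and 33.3, and 65.3 and 33.0 CPM. The 3 fractions did not overlap. The log2 difference of nuclear against cytoplasmic IP was -4.87 ± 0.23 (SE, adjusted p = 2.6e-10). IgG followed the same order, with 658 CPM in the cytoplasm, just under the lowest cytoplasmic IP unit, and 39.1 CPM in the nucleus.

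Cytoplasmic IP was compared with total RNA in a fit of all 18 units and all 13516 clusters that passed the filter on low counts, 143 members among them. The 2 members left out, uc029voj.1 and uc007qoh.1, had 209 of 211 and 202 of 223 counts in total RNA, so members low in both IPs are missing from the fit. Of the 143, 120 were higher in cytoplasmic IP at an adjusted p under 0.05 and 6 were lower. Over all clusters 36.0% were called higher and 41.2% lower. Among the 106 tested members with 200 counts in total RNA, 85 (80.2%) were higher, 6 were lower and 15 were not called. Their median log2 fold was 1.47, against 1.79 over the 143 members and -0.11 over all clusters tested. At least 2-fold higher were 68 of these 106, against 20.2% of all clusters, and at least 2-fold lower were 4, against 26.3%.

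The 2 members that ranked highest in cytoplasmic IP by the naming rule had no count in total RNA. For uc009mzj.1 (229 nt) the 12 total RNA libraries and the 6 nuclear IP libraries summed to 0 counts. Cytoplasmic IP held 31.3 and 49.8 CPM in wild type, 39.9 and 39.1 in high-fat, and 62.8 and 56.8 in ob/ob. That is at least 5861-fold higher than in total RNA, set against a floor of 3 counts over all total RNA libraries by library size. The cytoplasmic IgG library had 0.5 estimated counts, where 1 count is worth 2.28 CPM and a count of 0 allows up to 6.83 CPM. The lowest cytoplasmic IP unit, at 31.3 CPM, lay above both values. For uc009lwz.1 (292 nt) total RNA again summed to 0. Cytoplasmic IP held 22.5 to 30.0 CPM and nuclear IP 38.8 to 55.9 CPM, at least 3174-fold and 6549-fold higher. IgG held 11.4 CPM in the cytoplasm, from 5 counts, and 30.7 CPM in the nucleus, below all 6 units of its compartment in both cases. With 0 counts in total RNA, uc009mzj.1 and uc009lwz.1 passed the count minimum through the IPs. Their direction over total RNA was thus built into their choice. Levels above IgG, which the rule did not count, were favoured by it, and both are descriptions.

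The lowest member in cytoplasmic IP was uc008gpa.1 (386 nt, cluster number 13731). Total RNA held 64.0 and 87.3 CPM in wild type, 69.5 and 68.8 in high-fat, and 68.6 and 66.0 in ob/ob. Cytoplasmic IP held 6.32 and 5.60, 5.28 and 3.70, and 9.01 and 13.0 CPM. The groups were far apart, with a log2 fold of -3.47 ± 0.13 (SE, adjusted p = 1.2e-11). Here IgG stood at 22.8 CPM, from 10 counts, above every cytoplasmic IP unit. The second lowest that met the rule, uc008mrn.1 (459 nt), had 9.56 to 15.5 CPM in total RNA and 3.58 to 8.25 CPM in cytoplasmic IP, a log2 fold of -1.03 ± 0.15 (SE, adjusted p = 1.7e-05). Its IgG value of 11.4 CPM was also above all 6 units.

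Nuclear IP held members on both sides of total RNA. Against total RNA, 82 of the 143 members were higher and 32 lower, where all clusters gave 32.2% higher and 42.5% lower. Among the 106 with 200 counts in total RNA, 52 (49.1%) were higher, 32 (30.2%) lower and 22 not called. The median log2 fold was 0.56 in these 106 members, 1.04 in the 143 members, and -0.18 over all clusters tested. These comparisons use the same total RNA units as the cytoplasmic ones.

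The nuclear member with the highest fold was uc009acs.1 (255 nt), with 0 counts in total RNA. Nuclear IP held 42.1 and 63.4 CPM in wild type, 39.8 and 55.4 in high-fat, and 60.4 and 68.5 in ob/ob, at least 7541-fold above total RNA. Cytoplasmic IP held 0 and 11.9, 0.63 and 7.25, and 0 and 2.79 CPM. The cytoplasmic units were spread from 0 upward, and all lay below the lowest nuclear unit. Nuclear IgG had 10.4 CPM, below all 6 nuclear units. With 0 counts in total RNA, uc009acs.1 passed the count minimum through the IPs. Its direction over total RNA was built into its choice and its level above IgG was favoured by it, so both are descriptions. The next was uc009lwz.1, described above.

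The nuclear low end was led by uc008gpa.1 again and by uc008gpi.2 (447 nt, cluster number 13735). For uc008gpa.1 nuclear IP held 1.44 to 3.74 CPM, a log2 fold of -4.82 ± 0.15 (SE, adjusted p = 3.2e-12). For uc008gpi.2 total RNA held 28.7 and 28.8 CPM in wild type, 30.3 and 27.4 in high-fat, and 29.5 and 25.4 in ob/ob, while nuclear IP held 1.44 to 3.46 CPM in all 6 units. The log2 fold was -3.62 ± 0.16 (SE, adjusted p = 4.3e-11). In cytoplasmic IP the 2 clusters went apart: uc008gpi.2 held 30.0 to 56.7 CPM there, a log2 fold over total RNA of 0.44 ± 0.11 (SE, adjusted p = 0.00255), where uc008gpa.1 was at 3.70 to 13.0 CPM. The fold of 0.44 is smaller than the shift of the all-cluster median by library size alone (from -0.11 to -0.62). Nuclear IgG held 4.83 CPM of uc008gpa.1 and 3.86 CPM of uc008gpi.2, both above all 6 nuclear IP units.

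**Figure D2:**
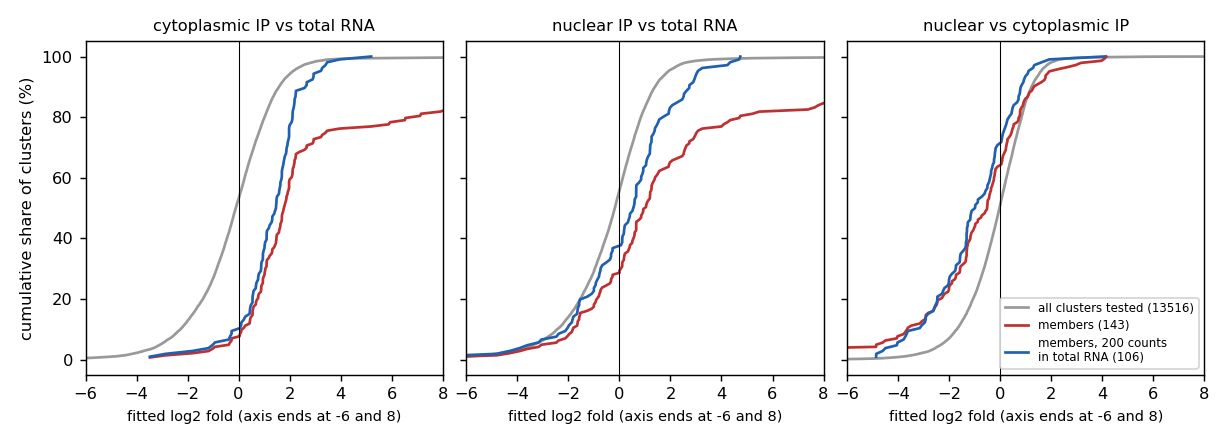
Cumulative share of clusters (percent, y axis) by fitted log2 fold (x axis, which ends at -6 and 8) for the 3 comparisons of fractions. Grey is all 13516 clusters tested, red the 143 members tested and blue the 106 of them with 200 counts in total RNA; the blue curve lies right of the grey one in cytoplasmic IP (medians 1.47 and -0.11), less so in nuclear IP (0.56 and -0.18), and left of it for nuclear against cytoplasmic IP (-0.99 and -0.04).

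The same shift could be read unit by unit. Each IP unit was set against the mean total RNA of its own mouse group, as log2 CPM, with 1 added as prior count. For the 106 members the 6 cytoplasmic units had medians of 0.96 and 1.53 in wild type, 1.84 and 1.85 in high-fat, and 1.33 and 1.50 in ob/ob. The wild-type pair lay further apart than the other pairs, and 1 wild-type library set the lower end. The nuclear units had medians of 0.35 and 0.26, 0.74 and 0.80, and 0.55 and 0.52 in the same order. Over all clusters tested the medians stayed between -0.08 and 0.01 in the cytoplasm and between -0.16 and -0.08 in the nucleus. The scaling moves these levels: with library size alone in place of TMM, the median over all clusters went from -0.11 to -0.62 (cytoplasmic IP) and from -0.18 to -0.54 (nuclear IP). The 143 members then had medians of 1.28 and 0.68, with 101 higher and 11 lower in the cytoplasm, where all clusters gave 21.6% and 54.2%, and 70 higher and 36 lower in the nucleus, where all clusters gave 21.1% and 51.7%. The 106 gave 67 and 11, then 41 and 36.

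Between the precipitates the members leaned to the cytoplasm. In nuclear against cytoplasmic IP, which does not involve total RNA, 71 of 143 members were lower in the nucleus and 32 higher, against 33.6% lower and 31.0% higher over all clusters. The median log2 difference was -0.52, and -0.04 over all clusters. Members with 200 counts in total RNA gave 59 lower and 17 higher of 106, with a median of -0.99. The 37 that entered through the IP libraries gave 12 lower and 15 higher, with a median of 0.24. At least 2-fold differences were called for 49 of the 106 lower and 7 higher in the nucleus, where all clusters gave 19.4% and 13.3%. With the other 37 the counts were 58 and 20 of 143. In IgG, with 1 library per compartment, members with 200 counts in total RNA held 0.924% of cytoplasmic and 0.817% of nuclear counts. In the IP units the medians of that share were 1.21% and 0.724%. How far the lean came with the antibody was not tested.

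Some members at the ends of this comparison were found in 1 precipitate and not in the other. On the cytoplasmic side, uc009mzj.1 and uc009nqk.1 (482 nt) had 0 counts in all nuclear IP libraries, at least 586-fold and 273-fold lower than in the cytoplasm. With 0 counts in total RNA too, both passed the count minimum through cytoplasmic IP, so this direction was built into their choice and is given as a description. For uc009nqk.1 cytoplasmic IP held 28.9 and 3.65 CPM in wild type, 19.9 and 10.95 in high-fat, and 31.4 and 30.9 in ob/ob. The wild-type units lay at opposite ends of nearly the whole range, and cytoplasmic IgG, at 11.4 CPM from 5 counts, was above 2 of the 6 units. On the nuclear side, uc009acs.1 had a log2 difference of 4.15 ± 0.66 (SE), which is a description, since 2263 of its counts, enough for the minimum, were in nuclear IP and 165 in cytoplasmic IP. For uc008uua.2 (381 nt), which has 748 counts in total RNA, it was 4.08 ± 0.37 (SE, adjusted p = 1.5e-07). For uc008uua.2 total RNA held 1.05 to 2.00 CPM. Cytoplasmic IP held 0.36 and 1.56, 0 and 0.32, and 0.55 and 0.43 CPM, and nuclear IP 5.21 and 6.83, 11.01 and 7.16, and 5.82 and 6.21 CPM. Nuclear IgG held 18.8 CPM, above every nuclear IP unit, and cytoplasmic IgG 2.28 CPM from 1 count, so the higher nuclear level of this member was also found in IgG.

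**Figure D3:**
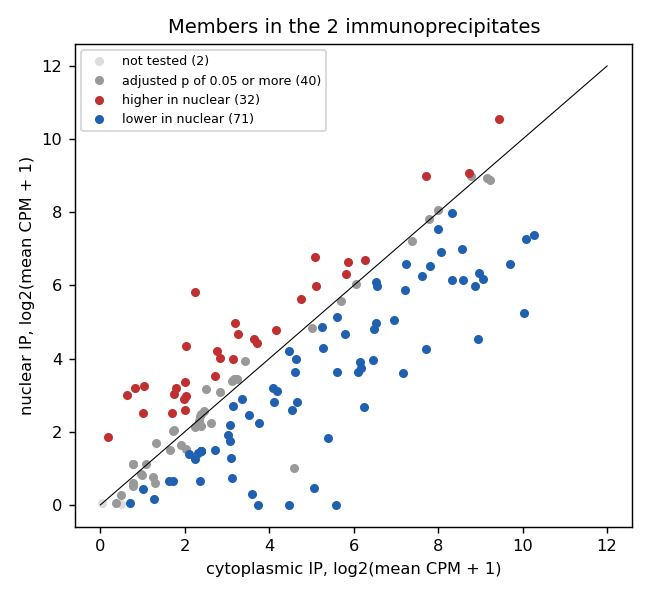
Mean CPM of each of the 145 members in cytoplasmic IP (x axis) and nuclear IP (y axis), both as log2(CPM + 1) over 6 units; colour gives the call in nuclear against cytoplasmic IP and the line marks equal levels. There are 71 members called lower and 32 called higher in the nuclear IP; the points on the x axis at the right are members with 0 nuclear counts such as uc009mzj.1.

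In 20 members none of the 12 total RNA libraries gave a count. All 20 were single isoforms, of 222 to 482 nt. Each had counts in cytoplasmic IP and 18 had counts in nuclear IP, where their median level was 7.72 CPM and 5.31 CPM. The highest were 46.6 CPM in the cytoplasm (uc009mzj.1) and 54.9 CPM in the nucleus (uc009acs.1). Counts were also present in IgG for 19 of the 20, 18 of them in the nuclear library, at a median of 2.41 CPM there. A further 13 members had under 60 counts in total RNA, 4 had 60 to under 200, and 46 had 10000 or more. The shortest member, uc008wzh.1 (155 nt), was of the sparse kind, with 18 counts in total RNA, 2.51 to 3.86 CPM in cytoplasmic IP and 1.08 to 2.18 CPM in nuclear IP, against 1.45 CPM in nuclear IgG. How RNA absent from total RNA reached the precipitates was not tested.

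One such member differed between samples of 1 group. It was chosen after its values were seen. In uc007vhv.1 (399 nt) cytoplasmic IP held 0 and 42.6 CPM in wild type, 0 in both high-fat units, and 27.6 and 67.4 in ob/ob. Nuclear IP held at most 4.37 CPM and both IgG libraries 0. Wild type had one replicate at 0 and one inside the ob/ob range, and the edgeR fit called this member in none of the 7 comparisons that tested it.

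The members were set against the IgG library of each compartment. In the cytoplasm 90 of 143 members (62.9%) were above the IgG library in all 6 units, against 44.6% of all clusters tested, and 15 were below it in all 6. Among the 106 with 200 counts in total RNA it was 62 (58.5%), and among the other 37 it was 28. The unit medians of the log2 difference were 0.68 to 1.27 for the 143, 0.26 to 1.02 for the 106 and 0.31 to 0.41 for all clusters. The IgG count was 0 in 36 of the 143 members, 21 of them among the 37, and any IP count is above it there. In the nucleus 38 of 143 members (26.6%) were above IgG in all 6 units, close to the 23.1% of all clusters, and 17 were below. Among the 106 it was 22 (20.8%), and the other 37 gave 16 (43.2%). The 37 were chosen through IP counts, with IgG not counted. Levels above IgG were thus favoured by their choice in both compartments, also where they are part of the 143. The nuclear unit medians were -0.06 to 0.39 for the 143, -0.27 to 0.29 for the 106 and -0.01 to 0.04 for all clusters. By library size alone the counts over the 143 were 63 and 12. The share of all clusters under that scaling is not given here, so the drop cannot be read as particular to the members. With 1 IgG library per compartment there is no replicate of the control and no test.

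**Figure D4:**
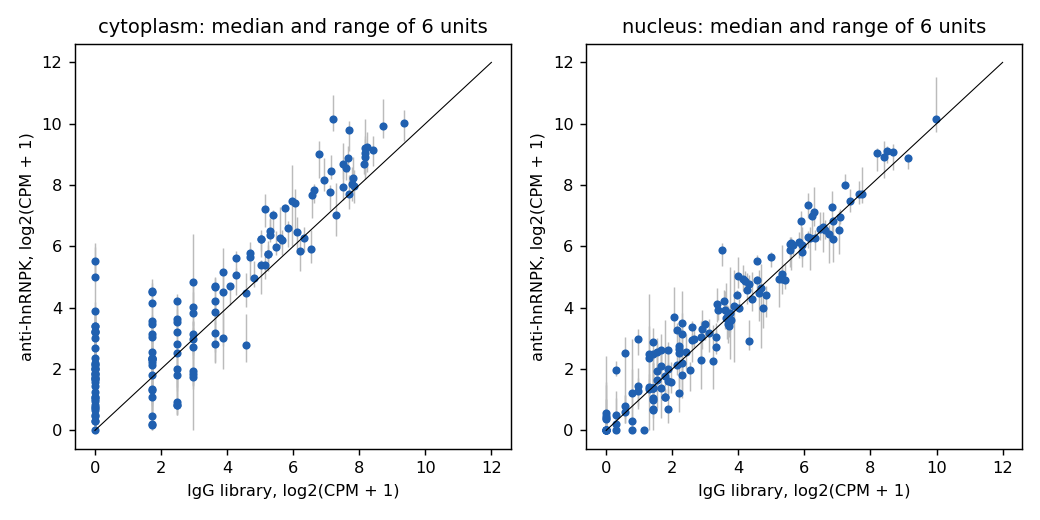
Level of each of the 145 members in the anti-hnRNPK precipitate (y axis; points are the median and lines the range of 6 units) against the IgG library of the same compartment (x axis), as log2(CPM + 1), left cytoplasm and right nucleus; the diagonal marks equal levels. Most cytoplasmic points lie above the diagonal, with steps at the left from the 338469 counts of that IgG library, and the nuclear points lie along it.

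A pair of abundant members, chosen after their values were seen, shows both cases. For uc007hno.2 (448 nt) total RNA held 72.3 and 89.1 CPM in wild type, 59.5 and 61.5 in high-fat, and 93.8 and 75.6 in ob/ob. Cytoplasmic IP held 877 and 1980.0, 1014 and 1155, and 1128 and 1234 CPM, a log2 fold of 3.97 ± 0.18 (SE, adjusted p = 4.9e-11), and the cytoplasmic IgG library 146 CPM, below all of them. For uc007biz.1 (454 nt) total RNA held 48.0 and 109, 36.6 and 56.2, and 88.1 and 61.8 CPM. Its nuclear IP held 1893 and 2916 in wild type, 1059 and 1114 in high-fat, and 1168 and 851 in ob/ob, a log2 fold of 4.34 ± 0.24 (SE, adjusted p = 6.0e-10). Nuclear IgG had 1017 CPM of it, inside that range and close to the 4 high-fat and ob/ob units. Both wild-type units of uc007biz.1 lay above all high-fat and ob/ob units in each precipitate (1031 and 1146 against 322 to 638 CPM in the cytoplasm). Set against total RNA, where the wild-type pair differed more than 2-fold, this gave no call (ob/ob minus wild type, log2 -1.31 ± 0.52 (SE) in the cytoplasm, adjusted p = 0.34, and -1.23 ± 0.52 in the nucleus, adjusted p = 0.357).

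**Figure D5:**
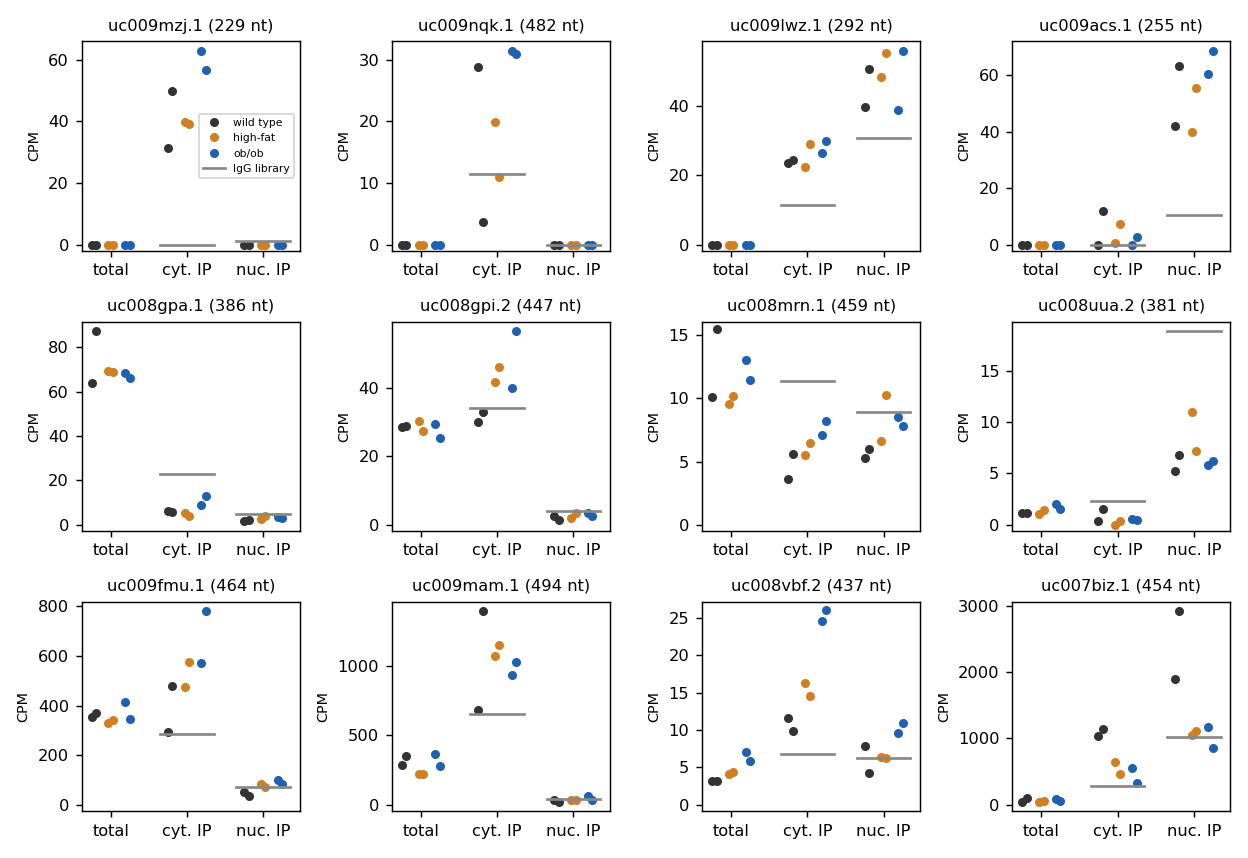
CPM (y axis, linear, a scale per panel) of 12 members in total RNA, cytoplasmic IP and nuclear IP (x axis); each point is 1 of 2 units of a mouse group and the grey line is the IgG library of that compartment. The top row shows members at 0 in total RNA, the middle row the members lowest in an IP and uc008uua.2, whose nuclear IgG line at 18.8 CPM lies above all nuclear points, and the bottom row the abundant members and uc008vbf.2.

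Length and level went with the fold inside the members. In cytoplasmic IP the median log2 fold was 7.14 for the 17 members shorter than 300 nt, 2.24 for the 41 of 300 to 399 nt and 1.47 for the 87 of 400 to 499 nt (16, 40 and 87 of them tested). In nuclear IP the medians were 8.73, 2.50 and 0.51. Most of that order came with the members scarce in total RNA: 5 members under 300 nt reached 200 counts there. Within the members that did, the medians were 2.26 (4 tested), 1.70 (22) and 1.31 (80) in the cytoplasm and 2.04, 0.85 and 0.39 in the nucleus. Over 143 members Spearman's rho between length and fold was -0.38 for cytoplasmic and -0.43 for nuclear IP, and -0.10 and -0.12 over the 106. Against the mean CPM in total RNA, which is itself a part of the fold, rho was -0.56 and -0.60 over 143 and -0.04 and -0.25 over 106. These are descriptions: the points share libraries, depth and the filter on counts.

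In total RNA edgeR called few clusters between mouse groups, among the members as over all clusters. The fit of the 6 total RNA units tested 113 members among 15487 clusters. In ob/ob against wild type 1 member was called, against 1.58% of all clusters, and 15 had an unadjusted p under 0.05 (13.3%), against 26.9%. The median log2 difference was 0.06 in the members and 0.00 over all clusters. In high-fat against wild type edgeR called no member and 0% of all clusters, and 24 members (21.2%) had an unadjusted p under 0.05, against 9.86%. The median was -0.21 in the members and 0.01 over all. In ob/ob against high-fat it called no member, against 0.491% of all clusters, with 33 members (29.2%) at an unadjusted p under 0.05 against 21.9%, and medians of 0.30 and 0.01. The first and second of these share the wild-type units and the last pair the high-fat units. DESeq2 called 9 (7.96%), 5 (4.42%) and 21 (18.6%) members in the 3 comparisons, against 13.6%, 2.09% and 9.25% of all clusters. Among the 108 members with 200 counts in total RNA, 14, 24 and 30 had an unadjusted p under 0.05 and the medians were 0.06, -0.21 and 0.28.

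The member called in ob/ob was uc008vbf.2 (437 nt). Total RNA held 3.12 and 3.21 CPM in wild type, 4.13 and 4.40 in high-fat, and 7.09 and 5.91 in ob/ob, so that the groups did not overlap and high-fat lay between. The log2 difference of ob/ob from wild type was 1.07 ± 0.15 (SE, adjusted p = 0.043). The IP units, which this test did not use, held 11.6 and 9.90 CPM in wild type, 16.3 and 14.5 in high-fat, and 24.7 and 26.0 in ob/ob in the cytoplasm. In the nucleus they held 7.90 and 4.31, 6.43 and 6.23, and 9.65 and 10.96. In both precipitates the ob/ob units were the highest. It was not shown that the IP units came from other livers than the total RNA, so they may not be independent of it. The call was lost without any 1 of 5 total RNA units, all but wild-type replicate 1, with log2 differences of 0.93 to 1.16. Without wild-type replicate 1 the median log2 difference of ob/ob from wild type over the members went from 0.06 to -0.002. In high-fat against wild type it went from -0.21 to -0.30. More members were then called in both comparisons, and the share over all clusters is not given here.

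Whether the IP over total RNA ratio of the members depended on the mouse group was asked in 4 interaction tests, and edgeR called no member in any of them. Over all 13516 clusters it called 1, 1, 2 and 4 (0.00740%, 0.00740%, 0.0148% and 0.0296%), so 0 members is near the background. With ob/ob minus wild type in the cytoplasm, 26 of 143 members had an unadjusted p under 0.05 (18.2%), against 12.3% of all clusters, and DESeq2 called 4, against 3.00% of all clusters. With high-fat minus wild type in the cytoplasm there were 34 (23.8%), against 9.88%, and DESeq2 called 15 (10.5%), all of them higher in high-fat, against 1.69%. With ob/ob minus wild type in the nucleus there were 13 (9.09%), against 12.5%, and DESeq2 called 2, against 2.50%. With high-fat minus wild type in the nucleus there were 27 (18.9%), against 10.6%, and DESeq2 called 10 (6.99%), all higher in high-fat, against 1.81%. Over all clusters the high-fat DESeq2 calls also leaned up, with 185 higher and 44 lower in the cytoplasm and 148 and 96 in the nucleus. Among the 106 members with 200 counts in total RNA, 23 (21.7%), 34 (32.1%), 12 (11.3%) and 26 (24.5%) had an unadjusted p under 0.05 in the same order.

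The median interaction over the members was 0.21, 0.41, 0.19 and 0.37 on the log2 scale in the same order, against 0.03, -0.02, 0.02 and -0.04 over all clusters. Over the 106 it was 0.22, 0.60, 0.25 and 0.49. Beside the high-fat medians stands the lower total RNA of the members in high-fat liver (median -0.21), which enters both. The ob/ob minus wild type median in the cytoplasm went from 0.21 to -0.08 without wild-type cytoplasmic replicate 1 and to 0.40 without replicate 2. The high-fat one went to 0.22 and 0.80. By library size alone the high-fat minus wild type median in the nucleus was -0.11, against -0.57 over all clusters.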

How the data were processed

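RNA sequencing of 26 liver libraries was analysed. The deposited tables hold 1 row for each of 59121 transcripts, with expected counts (estimated counts) that the authors made with RSEM, TPM, length and effective length. The authors' tools were bcl2fastq, TopHat2 2.0.10, Bowtie2 2.1.0, SAMtools and RSEM 1.2.8 with mm10, per the submitters' processing notes; their settings and the strandedness of counting are not given in the sources used here, so clusters that overlap or share sequence are uncertain. Deposited TPM values, normalized by the authors for length and depth, served to compare levels between clusters.

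Estimated counts were summed per cluster, then over the 2 total RNA libraries of a replicate number (titles give a second number, taken as a repeat), and rounded. Fits used edgeR 4.0.16 in R 4.3.3 (TMM, filterByExpr, quasi-likelihood test, Benjamini-Hochberg over all clusters, adjusted p under 0.05), with 1 mean per group. CPM are TMM-scaled. DESeq2 1.42.0 was an alternative. Scripts were tested on simulated data. Members, rule and tests were chosen with earlier results of these data known. Named by rule were called members of log2 CPM 1 or more whose units did not overlap (IP over total RNA: same direction in all 6 units), at most 2 per direction and comparison, plus the 2 highest by TPM and those nearest to each limit.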

Additional observations from a re-analysis of the deposited data

Results flagged for a closer look

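In 30 sets of 6 units, for the members named by rule and the members' share of counts, 4 held a unit far from the other 5. Chance alone gives such a unit in about 1 set in 20. For uc008gpa.1 in total RNA it was wild-type replicate 2 at 87.3 CPM, the others being at 64.0 to 69.5. For uc008uua.2 it was wild-type replicate 2 in cytoplasmic IP at 1.56 CPM, the others being at 0 to 0.55, and high-fat replicate 1 in nuclear IP at 11.01 CPM, the others being at 5.21 to 7.16. For uc009mam.1 in nuclear IP it was ob/ob replicate 1 at 65.3 CPM, the others being at 20.8 to 36.0. Causes were not tested.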

How the results depend on the processing

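The calls of the 12 IP results named by rule kept their direction and stayed under an adjusted p of 0.05 in every alternative run. Among the members named there, uc009mzj.1, uc009lwz.1, uc009acs.1 and uc009nqk.1 had 0 counts in total RNA. They entered through the IPs where they were high, so their directions were built into their choice and their stability is no support. That of uc008vbf.2 was lost in 6 of 12, the replicate block and 5 left-out units among them. With members under 400 nt alone, 51, 48 and 40 members were called in the cytoplasmic, nuclear and nuclear against cytoplasmic comparisons, since fewer were counted. Of the 56 tested there, 49, 41 and 18 were higher, against 36.0%, 32.2% and 31.0% of all clusters. Lower were 2, 7 and 22, against 41.2%, 42.5% and 33.6%. In ob/ob against wild type 0 were called, against 1.58% of all clusters. With DESeq2 the 3 total RNA comparisons (ob/ob against wild type, high-fat against wild type, ob/ob against high-fat) gave 9, 5 and 21 members and the interactions (ob/ob and high-fat in the cytoplasm, then in the nucleus) 4, 15, 2 and 10, against 13.6%, 2.09%, 9.25%, then 3.00%, 1.69%, 2.50% and 1.81% of all clusters. With each total RNA library as its own replicate, which counts repeats as replicates, these were 26, 29 and 42, then 12, 22, 7 and 14. Shares over all clusters are not given for that run or for the run without the filter. Their counts therefore show nothing particular to the members. Without the filter on low counts, ob/ob against wild type gave 4, ob/ob against high-fat 1 and high-fat minus wild type in the nucleus 2. Nuclear members above IgG were 12 by library size alone, against 38, and how all clusters moved under that scaling is not given here.

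Leaving out 1 unit gave 0 to 17, 0 to 18 and 0 to 18 members in the total RNA comparisons; the high values came on leaving out wild-type replicate 1, and for ob/ob against high-fat also wild-type replicate 2. It gave 120 to 128 in cytoplasmic IP, 108 to 119 in nuclear IP, 98 to 103 between the IPs, and 0 in 3 interactions. High-fat minus wild type in the nucleus gave 0 to 1, with 1 without ob/ob nuclear replicate 1, ob/ob nuclear replicate 2 or wild-type total replicate 1. A lone unit is then assumed to vary like the other groups. Shares over all clusters are not given for these runs, so changes in the counts show nothing particular to the members.

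The replicate numbers were not shown to pair samples. Fractions of the same number correlated in their deviations at 0.26 to 0.41 in wild type and ob/ob, and at -0.12 to 0.09 in high-fat. With the replicate block, ob/ob against wild type gave 0 members, high-fat minus wild type in the nucleus 4, and the other counts stayed within 1.5 times. Over all clusters the block gave 63 of 15487 in ob/ob against wild type and 17 of 13516 in high-fat minus wild type in the nucleus.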
